A study of Homo sapiens with 2 samples.

Results

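Chromatin modifiers and remodellers were followed in BE(2)-C cells, a human neuroblastoma line with amplified MYCN, collected 48 hours after control siRNA or linc00467 siRNA had been introduced. Genes were taken by symbol from the platform annotation: the KDM, KMT, SETD, HDAC, SIRT, PRMT, DNMT, TET, KAT, CHD, BRD and ARID families, SMARC genes, and 14 genes spelled out by name, without antisense transcripts. This gave 108 probe sets of 104 genes, out of 16098 named probe sets of 14884 genes. Of the 104 genes, 103 code for proteins and 1, BRD7P3, is a transcribed pseudogene. No SMARC gene and 10 of the 14 genes spelled out were found, so SMARC ATPases, EED, ASH1L, ASH2L and DOT1L were not analysed here.

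Both cultures were the same MYCN-amplified line and were treated alike apart from the siRNA. Each gave 1 RNA and 1 Affymetrix array, and 1 siRNA sequence was used against linc00467. Without replicates no difference carries an error or a test, and effects of the siRNA cannot be told apart from other ways in which 2 cultures or hybridizations differ. The authors deposited log2 levels, and differences are given as linc00467 siRNA minus control siRNA on that scale. As probe sets differ in how strongly they bind, differences were taken only between levels of the same probe set on the 2 arrays. Where a level is set beside that of other probe sets, it is a rough guide only.

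DNA is wound around histones, and chemical marks on histone tails and on DNA help to set which genes can be read. Writers add acetyl or methyl groups, erasers such as deacetylases and demethylases take them off, readers such as bromodomain proteins bind them, and remodellers use ATP to move nucleosomes. In neuroblastoma cells N-Myc is known to recruit histone deacetylases to gene promoters that it represses. Linc00467 is a long noncoding RNA.

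The targeted RNA, LINC00467, stood at 6.55 on the control array and at 5.67 after its knock-down, a difference of -0.88. The 9 adrenergic neuroblastoma marker genes examined lay between 6.41 and 11.1 on either array. Of their 10 probe sets 3 were lower past 1.2 fold, CHGA at -0.58, DBH at -0.41 and GATA3 at -0.30, and both of ISL1 were higher, at 0.29 and 0.30, with a median of -0.21 over the 10. Of 16 Schwann, blood, endothelial and fibroblast marker genes 8 were measured. The endothelial genes PECAM1, at 3.44 on both arrays, VWF, at 4.62 on both, and KDR, at 4.22 and 4.46, lay near or above the median level of 3.67 and 3.74 of gene families taken as silent. The Schwann cell genes SOX10 and S100B lay between 5.81 and 6.13, and CD68, of macrophages, at 7.496 and 7.408. The fibroblast gene LUM went from 8.14 to 9.70, a difference of 1.56, and DCN, of the same cells, from 4.02 to 3.61. Among 16 genes of dividing cells, CCNE1, E2F7, CDC6 and E2F1 were lower by at least 1.5 fold, with CCNE1 at -1.19 and E2F1 at -0.64, while MKI67 had 0.33 and MCM3 0.28. The median of these 16 was 0.03. Of all named probe sets 9.78% were lower and 8.5% higher by at least 1.2 fold, and 1.93% and 1.09% by at least 1.5 fold. The marker lists are too short for a share to be set closely against these, and were chosen with earlier results of these data known. The part of these markers in the differences below was not tested.

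With linc00467 siRNA 14 of the 108 probe sets were at least 1.2 fold lower and 4 at least 1.2 fold higher, a log2 difference of 0.26 either way, and the other 90 lay within it. The lower ones were 13.0% of the members against 9.78% of all named probe sets, and the higher ones 3.70% against 8.5%. Among the 95 members whose mean level was at or above the median of named probe sets, 5.68, 13 or 13.7% were lower against 13.4% of all such named probe sets, and 3 or 3.16% were higher against 10.7%. The share that was lower was thus close to the background at or above the median level, and the share that was higher was below it. Levels within these sets were not matched further. With quantile normalization of the arrays the split was 12 lower and 7 higher, so that the higher ones were 36.8% of those past 1.2 fold in place of 22.2%. Under that setting 11.1% of the members were lower against 8.5% of named probe sets, and 6.48% were higher against 10.0%. At 1.5 fold 3 members or 2.78% were lower against 1.93% of named probe sets, and 0 were higher against 1.09%. At the 1.8-fold cut-off of the study 1 member, KDM7A, was lower, 0.926% against 0.578%, and 0 were higher against 0.224%.

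The median difference of the members was 0.00, as it was over all named probe sets. The middle of the members, from the 25th to the 75th percentile, ran from -0.09 to 0.07, against -0.08 to 0.09 for all named probe sets, so the widths of 0.16 and 0.17 were nearly the same. With a level at or above the median, it ran from -0.11 to 0.06 for members and from -0.12 to 0.12 for named probe sets. Of the 108, 51 were below 0, 48 were above 0 and 9 had exactly equal deposited values on both arrays, namely KDM4D, SIRT3, KDM2B, ARID3B, CREBBP, KMT5C, SETD9, CHD7 and KDM4C. Equal values made up 8.33% of the members and 22.9% of all named probe sets, or 9.47% and 11.5% of those whose level was at or above the median, so a difference of 0 is a feature of the deposited table and may stand for a small difference in signal.

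**Figure D1:**
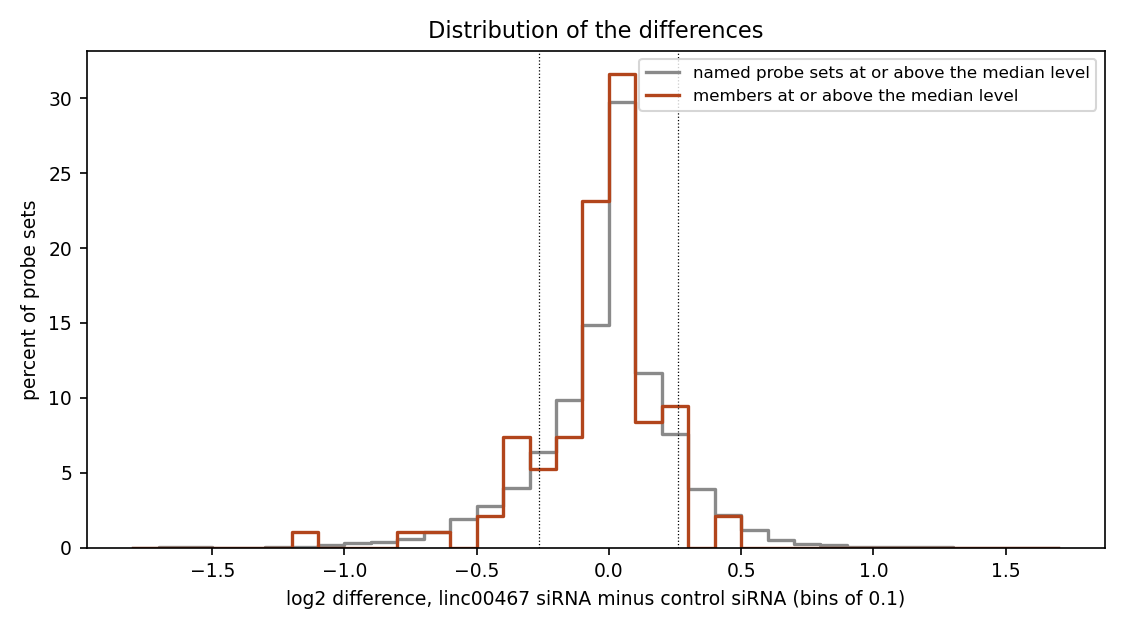
Distribution of the log2 differences, linc00467 siRNA minus control siRNA, in bins of 0.1, as a percent of the 95 members (orange) and of the 8049 named probe sets (grey) with a level at or above the median. Dotted lines mark 1.2 fold. Both sets peak next to 0, and the members range from KDM7A at -1.11 to CHD3 at 0.44.

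KDM7A, a JmjC demethylase that removes methyl groups from lysines 9 and 27 of histone H3, had the largest difference of all members. Its level was 7.57 with control siRNA and 6.46 with linc00467 siRNA, a difference of -1.11, or 46.3% of the control signal. KAT2B, the acetyltransferase also called PCAF, went from 6.71 to 6.001, a difference of -0.70 and 61.4% of control. HDAC6, a largely cytoplasmic deacetylase whose best known substrate is tubulin, went from 6.61 to 5.94, a difference of -0.67 and 63.0% of control. These were the 3 members past 1.5 fold, and all of them were lower. On the other side CHD3, an ATPase of the NuRD remodelling complex, went from 8.90 to 9.35, a difference of 0.44 and 136% of control. All of these genes have 1 named probe set each, so that no second reading of the same RNA was at hand.

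The sequences before the start sites of these 4 genes are shown because these are the 3 members that were lowest and the 1 that was highest, together with matches to a pair of motifs tied to the study's theme. These are the GC box bound by Sp1, searched as GGGCGG and CCGCCC so as to cover both strands, and the E-box bound by Myc proteins, CACGTG, which reads the same on both strands. Matches of 1 motif were counted without overlap, and the pair can share a base. Each run is the 250 bases before the start site from RefSeq (GRCh38.p14), 5′ to 3′ on the strand of the gene, with matches in capitals. KDM7A lies at chr7:140176984-140177233 on the minus strand, KAT2B at chr3:20040196-20040445 on the plus strand, HDAC6 at chrX:48801817-48802066 on the plus strand (the first of 3 start sites in the table), and CHD3 at chr17:7888539-7888788 on the plus strand.
KDM7A: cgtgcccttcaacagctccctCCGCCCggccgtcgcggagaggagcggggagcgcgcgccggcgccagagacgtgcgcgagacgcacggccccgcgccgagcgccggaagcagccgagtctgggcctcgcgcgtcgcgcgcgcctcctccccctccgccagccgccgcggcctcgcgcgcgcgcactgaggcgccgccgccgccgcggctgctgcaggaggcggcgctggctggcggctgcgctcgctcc
KAT2B: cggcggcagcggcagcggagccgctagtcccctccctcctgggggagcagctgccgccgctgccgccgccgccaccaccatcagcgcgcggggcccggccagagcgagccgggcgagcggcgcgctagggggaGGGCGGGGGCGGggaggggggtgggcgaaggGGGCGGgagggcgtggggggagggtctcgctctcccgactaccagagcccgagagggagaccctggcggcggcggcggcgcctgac
HDAC6: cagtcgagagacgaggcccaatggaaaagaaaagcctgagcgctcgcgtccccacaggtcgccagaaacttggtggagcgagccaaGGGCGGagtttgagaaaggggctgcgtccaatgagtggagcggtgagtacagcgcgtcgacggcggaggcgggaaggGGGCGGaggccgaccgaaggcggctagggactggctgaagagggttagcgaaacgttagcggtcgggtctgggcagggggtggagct
CHD3: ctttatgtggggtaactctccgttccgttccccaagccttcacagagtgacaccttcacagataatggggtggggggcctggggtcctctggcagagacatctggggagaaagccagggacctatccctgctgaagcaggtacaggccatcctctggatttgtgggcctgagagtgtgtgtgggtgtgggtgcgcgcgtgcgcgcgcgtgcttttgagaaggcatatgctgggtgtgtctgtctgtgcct

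The KDM7A window held 1 GC box, that of KAT2B 3 and that of HDAC6 2, and the CHD3 window held 0. The other start sites of HDAC6 held 1 and 3. No E-box match was present in these windows, nor in those of the other HDAC6 start sites. G and C made up 81.6% of the bases for KDM7A, 80.8% for KAT2B, 64.4% for HDAC6 and 58.8% for CHD3. Promoter windows were found for 93 of the 104 member genes. Of the 151 windows of members, 63.6% held a GC box and 10.6% an E-box, against 42.6% and 6.34% of all 35116 windows in the table. Windows of 1 gene can overlap, and a match describes the letters only. The windows of members and of the whole table were not matched for expression level, gene type or share of G and C. Whether other expressed genes hold these motifs as often as the members was not tested.

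**Figure D2:**
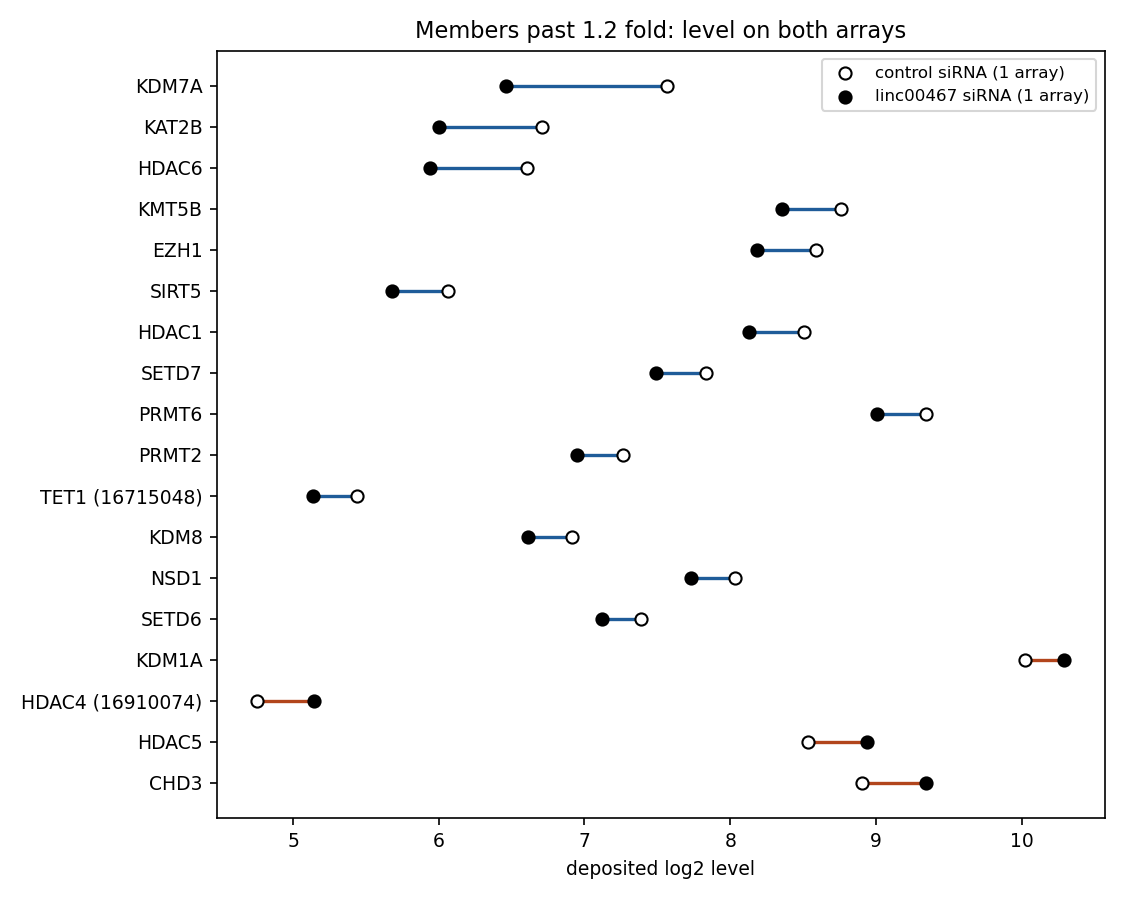
Deposited log2 level of the 18 members past 1.2 fold on the control siRNA array (open points) and the linc00467 siRNA array (filled points), 1 array per condition, joined by blue lines where lower and orange lines where higher with linc00467 siRNA. KDM7A spans the widest gap, from 7.57 to 6.46. Numbers in brackets are probe sets of genes with several.

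Role groups are taken in turn below, with the same background at 1.2 fold of 9.78% lower and 8.5% higher. Each group is too short for a share to be set closely against it. Among the lysine methyltransferases, EZH1 of Polycomb repressive complex 2, which methylates lysine 27 of histone H3, was lower by at least 1.2 fold. EZH1 went from 8.59 to 8.18, a difference of -0.41. Its close relative EZH2 went from 9.54 to 9.40, a difference of -0.14, and SUZ12, a core subunit of the complex, had 10.41 and 10.42. Of the demethylases of the same lysine, KDM7A had -1.11, as given above, and KDM6A and KDM6B had 0.06 and 0.12.

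None of the 5 probe sets of methyltransferases for lysine 9 of histone H3 was past 1.2 fold as deposited. EHMT2, also called G9a, went from 8.69 to 8.44, a difference of -0.25 that became -0.28, past 1.2 fold, with a lowess correction for level, whereas its partner EHMT1 went from 7.42 to 7.56, a difference of 0.14. SUV39H1, an enzyme of constitutive heterochromatin, had 0.05 at both of its probe sets, 1 at 8.52 and 8.57 and the other at the low levels of 4.05 and 4.10. SUV39H2 went from 8.78 to 8.72. The KDM3 and KDM4 demethylases of this lysine ranged from -0.05 for KDM4E, at a low level of 3.82 and 3.77, to 0.19 for KDM4A.

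Of 14 other methyltransferase genes of the SET-domain families, 4 were lower by at least 1.2 fold and 0 were higher. The background was 9.78% lower and 8.5% higher, and 14 genes are too few to be set closely against it. The median of the 14 was -0.03. KMT5B, which methylates lysine 20 of histone H4, went from 8.76 to 8.36, a difference of -0.41. SETD7, which methylates lysine 4 of histone H3 and many other proteins, went from 7.84 to 7.49, a difference of -0.34. NSD1, a methyltransferase for lysine 36 of histone H3, went from 8.04 to 7.73, and SETD6, which methylates the NF-kappaB subunit RELA, from 7.39 to 7.12. The MLL-family genes KMT2B, KMT2C and KMT2D and their relative SETD1A had differences between -0.06 and 0.13. SETD3, an actin histidine methyltransferase, had the largest positive difference of the group at 0.24, from 9.49 to 9.73, which did not reach 1.2 fold. The others of the H4 lysine 20 family, KMT5A and KMT5C, had -0.17 and 0.00. SETD2, which methylates lysine 36 of histone H3, had -0.19, and SETD5 had 0.21.

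Of 19 histone demethylase genes 2 were lower, KDM7A and KDM8, and 1 was higher, KDM1A, by at least 1.2 fold. KDM8, a JmjC-domain protein, went from 6.91 to 6.61, a difference of -0.30. KDM1A, the flavin-dependent demethylase LSD1 of lysine 4 of histone H3, went from 10.02 to 10.29, a difference of 0.27 that lay just past 1.2 fold and became 0.23, within it, with the lowess correction. Its relative KDM1B had -0.06. The demethylases of the same lysine with a JmjC domain, KDM5A, KDM5B and KDM5C, had -0.24, -0.18 and -0.06. KDM2A, KDM3A, KDM3B and KDM4B ranged from -0.07 to 0.12. The median of the 19 was 0.00, so the low KDM7A value stood apart from the other demethylases in size. KDM5D counted among the 19 without a printed value.

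Of 8 arginine methyltransferase genes with a PRMT symbol, PRMT6 and PRMT2 were lower by at least 1.2 fold and 0 were higher. The arginine methyltransferase gene CARM1, which the symbol rule leaves out, had -0.40, from 10.12 to 9.72. PRMT6, which methylates arginine 2 of histone H3, went from 9.34 to 9.01, a difference of -0.33, and PRMT2 from 7.27 to 6.95. PRMT5, which makes symmetric dimethylarginine, had the largest positive difference at or above the median level, 0.22, from 8.52 to 8.74. PRMT8 had 0.24 at the lower levels of 4.30 and 4.54. PRMT1, PRMT3, PRMT7 and PRMT9 lay between -0.09 and 0.12.

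**Figure D3:**
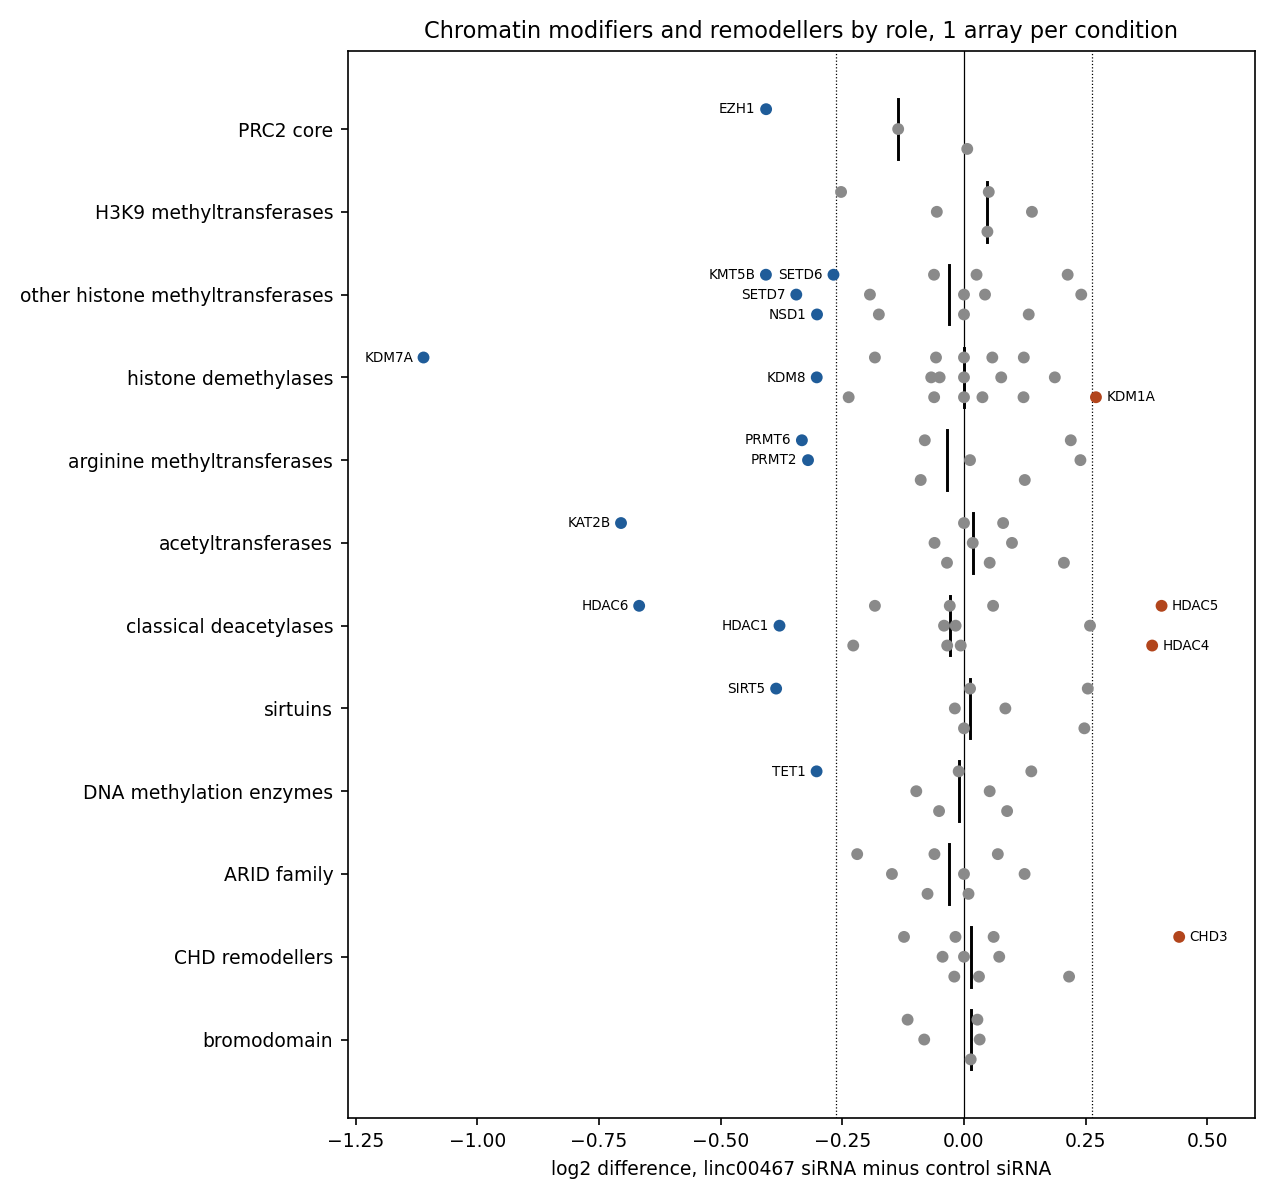
Log2 difference, linc00467 siRNA minus control siRNA, of 107 of the 108 members by role (KDM5D left out), 1 array per condition. Points are probe sets, blue or orange with a name where lower or higher by at least 1.2 fold (dotted lines), and black bars are group medians, which lie between -0.14 and 0.05.

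Among 9 acetyltransferase genes KAT2B was the only one past 1.2 fold. Its close relative KAT2A, also called GCN5, went from 9.31 to 9.28, a difference of -0.03. The coactivators CREBBP, at 10.25 on both arrays, and EP300, at 9.67 and 9.75, and the MYST-family genes KAT5, KAT7 and KAT8 lay between -0.06 and 0.10. KAT6B, also of the MYST family, had the largest positive difference of the group, 0.21, from 7.75 to 7.95. KAT14 had 0.02.

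Of 13 probe sets of classical deacetylases, 2 were lower and 2 higher past 1.2 fold. Of the class I enzymes, HDAC1, which works in nuclear corepressor complexes, went from 8.51 to 8.13, a difference of -0.38. HDAC3 had -0.23 and HDAC8 -0.01, while HDAC2 had -0.18 and -0.04 at its pair of probe sets. Of the class IIa genes, which shuttle between nucleus and cytoplasm, HDAC5 went from 8.53 to 8.94, a difference of 0.41. HDAC9 had 0.26, short of 1.2 fold as deposited and past it with quantile normalization or lowess, and HDAC7 -0.03. HDAC4 was past 1.2 fold at 1 probe set only, from 4.76 to 5.14, a difference of 0.39, and had -0.02 at its other probe set, from 7.02 to 7.003. The annotation ties the HDAC4 probe set that was higher, and the HDAC2 probe set at 7.10 and 7.06, to noncoding RefSeq records under these symbols, while the HDAC2 probe set tied to a coding record lay at 4.68 and 4.497. Which probe set of either gene reads its coding RNA was not tested. HDAC10, of class IIb with HDAC6, had -0.03, and HDAC11 had 0.06.

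Of 7 sirtuin genes, which code for NAD-dependent deacylases, SIRT5 was lower by at least 1.2 fold. SIRT5, a mitochondrial desuccinylase, went from 6.06 to 5.68, a difference of -0.39. The nuclear SIRT6 and SIRT7 had 0.25 each, SIRT7 from 6.88 to 7.13, and neither reached 1.2 fold, which both passed with quantile normalization. SIRT1, SIRT2, SIRT3 and SIRT4 lay between -0.02 and 0.09.

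The enzymes of DNA methylation showed 1 probe set past 1.2 fold out of 7. DNMT1, which copies methylation after replication, had 10.68 and 10.67 and thus almost no difference. The de novo enzymes DNMT3A and DNMT3B had 0.14, from 7.62 to 7.76, and 0.05, from 6.85 to 6.91. DNMT3L, a cofactor of these enzymes without activity of its own, had 0.09 at levels of 4.80 and 4.89. TET1, which oxidizes methylcytosine, had -0.30 at a probe set with levels of 5.44 and 5.14 and -0.05 at its other probe set, with levels of 8.90 and 8.85. TET2 went from 8.08 to 7.98. A lower TET1 level was thus seen at 1 of its probe sets and not at the other.

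Among the remodellers CHD3 was the only one of 10 CHD genes past 1.2 fold. CHD4, the alternative ATPase of NuRD, had 9.85 and 9.83, a difference of -0.02, against 0.44 for CHD3. CHD9 had 0.22, CHD6, from 7.48 to 7.36, had the largest negative difference at -0.12, and CHD1, CHD1L, CHD2, CHD5, CHD7 and CHD8 lay between -0.04 and 0.07. None of 8 ARID probe sets was past 1.2 fold. The SWI/SNF subunits ARID1A and ARID1B had 0.01 and -0.06, and the extremes were ARID5B at -0.22, from 8.33 to 8.11, and ARID4B, a Sin3-associated protein, at 0.12, from 7.42 to 7.54. ARID3A, ARID3B, ARID3C and ARID5A lay between -0.15 and 0.07. The 5 BRD probe sets had the narrowest range of the 12 role groups with members. They ran from -0.12 for BRD2, which binds acetylated histones, at 8.38 and 8.26, to 0.03 for BRD7, at 8.24 and 8.27. Bromodomain proteins with other symbols were not in this group, among them SP110, a partner gene with 0.74 at low levels. BRD3 had 0.03 and BRD8 0.01. The pseudogene BRD7P3 lay at 1.882 and 1.7998.

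Of the 4 genes with a pair of probe sets, SUV39H1 and HDAC2 stayed on the same side of 1.2 fold at both, whereas TET1 and HDAC4 passed it at 1 only. At TET1 and HDAC4 the probe set past 1.2 fold was the one with the lower mean level, 5.29 and 4.95, below the median of named probe sets. For the 100 genes with 1 probe set this comparison could not be made.

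Partner genes of the same complexes, outside the symbol rule, were examined in 9 lists. Of 206 listed genes 150 were measured, by 166 probe sets, with 18 lower and 16 higher past 1.2 fold and a median of 0.00. Past 1.5 fold 4 were lower and 2 were higher. These were 10.8% and 9.64% past 1.2 fold, against 9.78% and 8.5% of all named probe sets, and 2.41% and 1.2% past 1.5 fold, against 1.93% and 1.09%, so the partners lay near the background. BCL7A, a subunit of SWI/SNF, went from 7.63 to 6.59, a difference of -1.05, while its relatives BCL7B and BCL7C had -0.37 and 0.41. CBX6, a Polycomb protein that binds methylated lysine 27 of histone H3, had -0.76, from 9.99 to 9.24, and -0.43 at another probe set. The methyl-DNA binding protein gene ZBTB33, also called Kaiso, had -0.65, and TDG, the glycosylase that completes TET-dependent demethylation, had -0.62. The 2 that were higher were SP110, a bromodomain protein of nuclear bodies, with 0.74 at the low levels of 4.62 and 5.37, and HR, the hairless corepressor and demethylase, with 0.63, from 6.40 to 7.04.

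**Figure D4:**
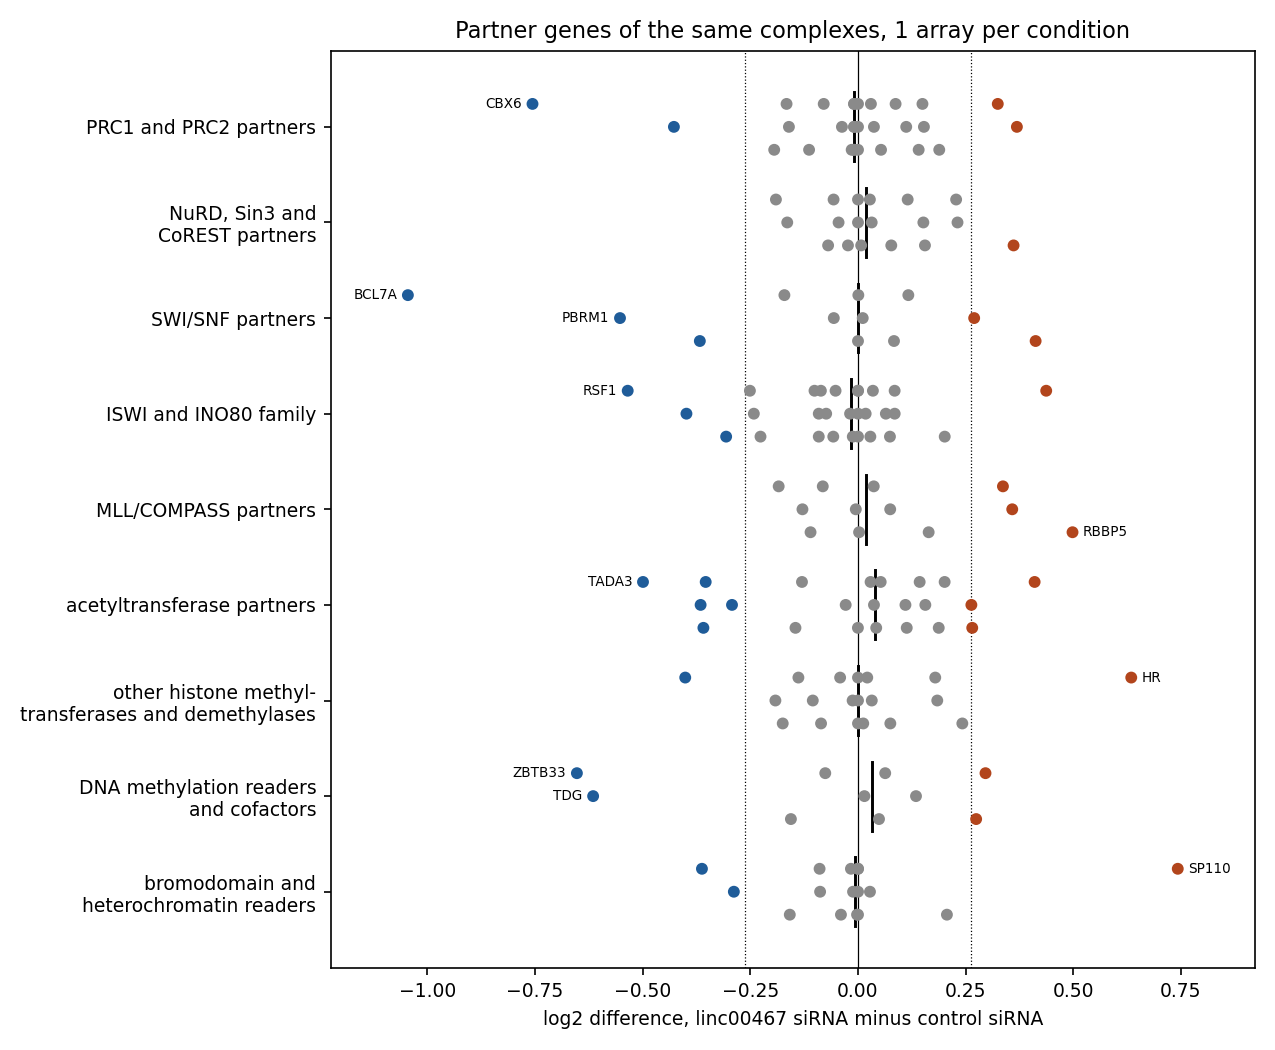
Log2 difference, linc00467 siRNA minus control siRNA, of 166 probe sets of partner genes in 9 lists, 1 array per condition. Points are probe sets, blue or orange where lower or higher by at least 1.2 fold (dotted lines), the furthest with names, and black bars are list medians, which lie between -0.02 and 0.04. BCL7A at -1.05 lies lowest.

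For the lists one by one, the background at 1.2 fold was the same 8.5% higher and 9.78% lower, and each list is too short for a share to be set closely against it. PRC1 and PRC2 partners had 2 higher and 2 lower of 29 probe sets of 20 genes. Both lower ones were of CBX6, and several were of RING1, with the same values. NuRD, Sin3 and CoREST partners had 1 higher, the methyl-DNA binding gene MBD2 at 0.36, and 0 lower of 18. SWI/SNF partners had 2 higher and 3 lower of 12, among them PBRM1, a subunit of the PBAF form, at -0.55. The ISWI and INO80 family had 1 higher and 3 lower of 28 probe sets of 23 genes, several of them of DAXX, with RSF1, a partner of an ISWI ATPase, at -0.53. MLL partners had 3 higher and 0 lower of 12. The higher ones were the shared subunits RBBP5 at 0.50 and DPY30 at 0.34 and the coactivator NCOA6 at 0.36. The other 9 ran from -0.18 for PAGR1 to 0.16 for PAXIP1, with WDR5, another shared subunit, at -0.13. The methyltransferases KMT2B, KMT2C and KMT2D of these complexes were within 1.2 fold. Acetyltransferase partners had 3 higher and 5 lower of 22, other methyltransferases and demethylases 1 each way of 19, DNA methylation readers 2 each way of 10, and bromodomain and heterochromatin readers 1 higher and 2 lower of 16. The partner genes named below 1.5 fold were picked with their values in view.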

How the data were processed

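Total RNA of 2 BE(2)-C cultures was hybridized to Affymetrix HuGene-2_0-st arrays, 1 per condition. Values deposited by the authors are log2 levels, 1 per probe set. R and Bioconductor are named in the study's methods, and MAS5 in the submitters' processing notes. Versions, the normalization and the array's genome build: not given in the sources used here. Levels were used as deposited, and folds are 2 raised to the difference. Gene names came from the platform annotation, 1 symbol for 16098 of 53617 probe sets, and the other 37519 are unnamed here. All 14884 named genes matched the RefSeq table (GRCh38.p14) by gene number. Counts are of probe sets. No test was made with 1 array per condition, and precision is limited by the number of arrays.

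Named members were those past 1.5 fold, the extremes of each role group at or above the median level, the highest and lowest levels, and all PRC2, H3K9 and DNA methylation genes, and in partner lists those past 1.5 fold. Other members are named to complete counts and ranges. Members, lists and alternatives were chosen with earlier results of these data known. The counting was tested on simulated data. Alternatives were centring, quantile normalization, lowess with a fraction of 0.2, a floor, 1 value per gene, a level filter, removal of equal values, and other folds. Python 3.11.15, numpy 2.4.6, pandas 2.3.3, statsmodels 0.14.6 and matplotlib 3.10.9 were used. Promoter windows came from RefSeq.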

Additional observations from a re-analysis of the deposited data

How the results depend on the processing

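Centring changed nothing, since the median difference was already 0.00. Lowess, the floor, 1 value per gene, the level filter and removal of equal values kept the counts of members past 1.2 fold within 1.5 times of 4 higher and 14 lower, and moved the median by at most 0.01. With quantile normalization 7 were higher and 12 lower, with a median of 0.03: HDAC9, SIRT6 and SIRT7 passed 1.2 fold, and KDM8 and SETD6 no longer did. With lowess EHMT2 at -0.28 and HDAC9 at 0.26 passed it, and KDM1A at 0.23 no longer did. By construction fewer passed larger folds, 0 higher and 3 lower at 1.5 fold, and 0 higher and 1 lower at 1.8 fold. Of 36 probe sets followed singly no called difference changed sign. TET1 had -0.18 with its probe sets averaged, within 1.2 fold, and BRD7P3 had 0.07 with the floor. No paired analysis was possible because each condition had 1 array. Signals near the level of silent families limit KDM4E, BRD7P3 and the SUV39H1 probe set with the lower level.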

Other observations

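Genes listed as subunits of SAGA, the coactivator complex that holds KAT2A or KAT2B, were looked at together after their values had been seen. Of 21 listed genes 13 were measured, with a median of -0.09. Past 1.2 fold, 5 or 38.5% were lower and 0 were higher, against 9.78% and 8.5% of all named probe sets, and nothing can be read from that share because the list was put together with these values in view. Beside KAT2B at -0.70 these were the adaptor genes TADA3 at -0.50 and TADA2A at -0.36, the deubiquitinase gene USP22 at -0.37, from 10.83 to 10.46, and ATXN7, which anchors the deubiquitinase, at -0.35. The count includes TADA2A although the human complex holds its relative TADA2B, which had 0.11. The other 8 lay between -0.13 for TRRAP and 0.20 for SGF29, and the list was not compared with other lists.

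Of the transcripts that the symbol rule left out, KDM7A-DT, which is named as a divergent transcript of KDM7A, went from 5.68 to 5.52, a difference of -0.15, against -1.11 for KDM7A. KDM4A-AS1 went from 5.003 to 4.732, a difference of -0.27, while KDM4A had 0.19. KMT2E-AS1 had 6.53 and 6.52, and KMT2E was not analysed here.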
